A study of Mus musculus with 11 samples.

Results

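The genes described here encode subunits of the nexin-dynein regulatory complex (N-DRC) of the axoneme and the pair of proteins known as the axonemal rulers. They were chosen by name and role, by a rule that uses no measured value, although earlier results of these data were known: 7 N-DRC subunits (Drc1, Ccdc65, Gas8, Drc3, Tcte1, Fbxl13 and Drc7) and 2 rulers (Ccdc39 and Ccdc40), 9 of the 23074 genes counted. Whole decapsulated testes were taken at postnatal day 21 (P21) from 5 wild type mice and 6 Rfx2-/- mice on a mixed C57BL/6, 129/Sv and FVB/N background, and their RNA was sequenced, with no treatment given. In the mutant, exon 7 of Rfx2, which codes for most of the DNA binding domain of this transcription factor, has been removed throughout the body with a Cre driven by the beta-actin promoter, and the wild type mice carry no altered allele. By the study's methods, mutants of the mixed background line also keep a neomycin selection cassette at the locus. At P21 the first wave of spermatogenesis has produced many pachytene spermatocytes and the earliest round spermatids. The comparison of genotypes asks which of these axonemal genes depend on RFX2 at that age.

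The N-DRC is a bridge between neighbouring doublet microtubules of motile cilia and sperm flagella. It holds the doublets together while dynein makes them slide, and it passes signals to the dynein arms so that sliding is turned into bending. Drc1, Ccdc65 and Gas8 are coiled-coil proteins that form the core of the bridge, and the other subunits attach to this core. Ccdc39 and Ccdc40 form a long filament along each doublet that sets the spacing at which the N-DRC, the radial spokes and the inner dynein arms repeat.

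Between 26925157 and 29769483 reads were counted in each wild type mouse and between 22232097 and 27116903 in each Rfx2-/- mouse. Levels are given as CPM, counts relative to the scaled size of each library, and 3 counts, taken as the floor, correspond to between 0.0852 and 0.139 CPM. Rfx2 itself had 191.1 to 471.8 CPM in wild type and 282.4 to 324.1 CPM in the mutant mice, which did not pass the edgeR test (log2 fold change -0.10, adjusted p = 0.714). The count covers all exons, so it does not show whether exon 7 was lost and it is no check of the genotype labels. The first principal component of all 15745 tested genes held 62.4% of the variance. Wild type mice differed among themselves in a score of 13 round spermatid markers, the mean of their log2 CPM. Whether they differed in how far spermatogenesis had come was not tested. The score was 5.20, 2.97, 0.09, 0.34 and -1.36 in wild type replicates 1 to 5. In Rfx2-/- replicates 6 to 11 it was 4.17, 5.55, 1.015, 1.15, 3.27 and 2.56. The genotypes overlapped in this score (difference 1.504, exact permutation p = 0.273, adjusted p = 0.409 over 9 marker lists). In bulk testis, fewer cells of a type and less RNA per cell cannot be told apart.

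RFX proteins bind the X-box, a nearly palindromic site with the consensus GTTGCCATGGCAAC, in many promoters of ciliary genes. RefSeq promoters of GRCm38.p6, reaching from 250 bases before a start to 50 after it, were found for 8 of the 9 genes, and the exception was Tcte1. Below are those of the 3 genes that fell in Rfx2-/- testis and, for contrast, of 2 that did not pass the test, each read 5′ to 3′ on the strand of the gene. Capitals mark the stretch of 14 bases closest to the consensus on either strand, and the first of them where several were equally close.
Drc1, chr5:30281143-30281442, plus strand: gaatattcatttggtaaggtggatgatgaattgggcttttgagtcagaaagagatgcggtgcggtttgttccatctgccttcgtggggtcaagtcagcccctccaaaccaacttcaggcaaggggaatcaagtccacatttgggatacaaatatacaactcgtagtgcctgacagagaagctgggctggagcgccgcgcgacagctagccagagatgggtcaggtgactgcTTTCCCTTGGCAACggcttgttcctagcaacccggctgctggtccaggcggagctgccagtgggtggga
Drc7, chr8:95054853-95055152, plus strand: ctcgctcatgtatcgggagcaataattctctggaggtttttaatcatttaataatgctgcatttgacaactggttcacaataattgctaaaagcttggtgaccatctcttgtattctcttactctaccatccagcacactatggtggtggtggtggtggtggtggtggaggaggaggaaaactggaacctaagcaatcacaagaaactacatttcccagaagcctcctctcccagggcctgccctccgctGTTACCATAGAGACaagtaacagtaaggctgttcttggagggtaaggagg
Ccdc40, chr11:119228322-119228621, plus strand: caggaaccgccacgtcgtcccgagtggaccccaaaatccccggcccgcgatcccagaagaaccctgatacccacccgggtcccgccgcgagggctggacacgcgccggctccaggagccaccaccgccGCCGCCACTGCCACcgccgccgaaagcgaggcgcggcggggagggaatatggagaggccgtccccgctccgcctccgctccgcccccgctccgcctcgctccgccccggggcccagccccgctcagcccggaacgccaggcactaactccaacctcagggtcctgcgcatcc
Ccdc39, chr3:33844261-33844560, minus strand: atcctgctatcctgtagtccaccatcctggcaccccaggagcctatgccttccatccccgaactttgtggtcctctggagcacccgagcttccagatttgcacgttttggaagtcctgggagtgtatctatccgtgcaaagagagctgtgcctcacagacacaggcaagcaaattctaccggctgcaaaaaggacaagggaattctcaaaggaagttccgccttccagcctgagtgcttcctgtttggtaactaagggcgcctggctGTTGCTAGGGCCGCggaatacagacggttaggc
Drc3, chr11:60353130-60353429, plus strand: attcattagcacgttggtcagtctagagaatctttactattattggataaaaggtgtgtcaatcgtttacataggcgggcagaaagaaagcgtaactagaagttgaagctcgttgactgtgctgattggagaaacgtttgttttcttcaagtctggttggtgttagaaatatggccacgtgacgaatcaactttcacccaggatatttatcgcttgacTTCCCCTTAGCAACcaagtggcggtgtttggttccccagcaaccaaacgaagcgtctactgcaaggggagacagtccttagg
In the Drc1 promoter, 11 of 14 letters matched, in a stretch that begins 19 bases before the start, and 3.37% of the 32851 promoters searched had a match at least as close. Drc7 and Ccdc39 each had 10 matching letters, as close a match as in 12.2% of promoters. Ccdc40, Drc3, Gas8 and Fbxl13 had 9, which 48.0% of promoters reach, and Ccdc65 had 8, the median of all promoters. The 6-letter part GTTGCC, or GGCAAC on the other strand, was present in the promoters of Drc1, Gas8 and Fbxl13, against 12.5% of all promoters. Thus a gene that fell (Drc7) and a gene that did not pass the test (Ccdc39) had equally close matches, and another that fell (Ccdc40) had no closer match than Drc3. These are matches of letters in 300 bases and do not show where RFX2 binds.

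Drc1, Drc7 and Ccdc40 were downregulated in Rfx2-/- testis, and the other 6 genes did not pass the limit of an adjusted p of at most 0.01. Thus 3 of 9 genes were called lower, against 1.94% of all tested genes, and none higher, against 0.73%. All 3 fell by more than 2-fold, which 1.04% of tested genes did. The genotypes were separate, with all mutants below, for 4 of the 9 genes (5.2% of tested genes), and separate with all mutants above for none (6.5% of tested genes). The median log2 fold change of the 9 genes was -0.60, against -0.05 for all tested genes.

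**Figure D1:**
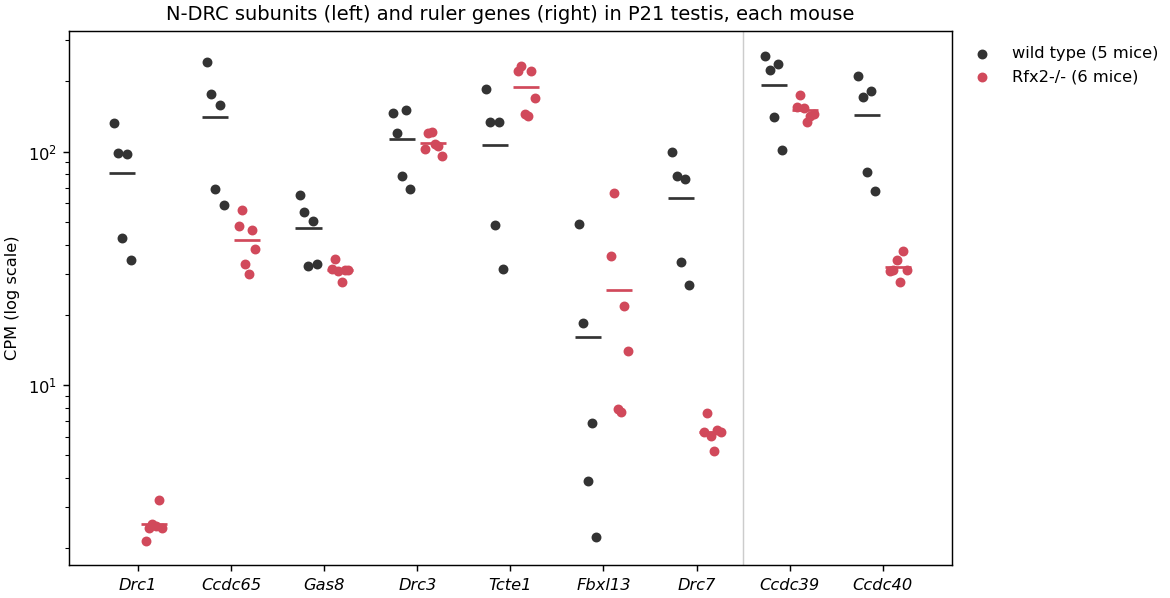
CPM on a log axis of the 7 N-DRC subunits (left of the line) and the 2 ruler genes (right) in each mouse, with wild type in grey, Rfx2-/- in red and a bar at each group's mean. The genotypes are separate for Drc1, Ccdc65, Drc7 and Ccdc40 and overlap for the other genes, and Fbxl13 has the widest spread within each genotype.

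Among the core subunits, Drc1 (ENSMUSG00000073102, chromosome 5 from 30281388 to 30366695 of GRCm38, plus strand) showed the largest change of the 9 genes. DRC1 anchors the complex to the doublet and its loss in humans causes primary ciliary dyskinesia. The CPM of Drc1 were 132.4, 98.8, 42.9, 97.3 and 34.4 in wild type replicates 1 to 5 and 2.16, 2.44, 2.54, 2.49, 3.22 and 2.44 in Rfx2-/- replicates 6 to 11. The highest mutant value was thus far below the lowest wild type value, and the mutants rested on 54 to 74 reads each. Means were 81.1 ± 41.4 CPM (SD, n = 5) and 2.55 ± 0.355 CPM (SD, n = 6), a level 31.9-fold lower in the mutant. The log2 fold change was -4.99 (SE 0.36), and edgeR's quasi-likelihood test gave an adjusted p = 2.49e-05. The mutant mice hardly differed in Drc1 (highest over lowest 1.49), whereas wild type mice differed by a factor of 3.85.

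Ccdc65 (ENSMUSG00000003354, chromosome 15 from 98708207 to 98723336, plus strand) encodes the partner of DRC1 in the core. Its CPM were 241.4, 175.8, 68.9, 158.5 and 59.3 in wild type mice and 47.8, 56.0, 32.9, 29.8, 46.2 and 38.4 in Rfx2-/- mice. All 6 mutants lay below all 5 wild type mice, but Rfx2-/- replicate 7 came close to wild type replicate 5. Means were 140.8 ± 76.6 (SD, n = 5) and 41.9 ± 9.92 CPM (SD, n = 6), with a log2 fold change of -1.75 (SE 0.35) and an adjusted p = 0.0125 in the edgeR test, which misses the limit. The limit was passed in 7 of 20 alternative analyses, among them without wild type replicate 3 (adjusted p = 0.00792), without wild type replicate 5 (adjusted p = 0.00440) and with the round spermatid score as a covariate (adjusted p = 2.6e-05).

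Gas8 (ENSMUSG00000040220, chromosome 8 from 123518834 to 123536650, plus strand) encodes the remaining core subunit, which also binds microtubules outside cilia. Its CPM were 65.0, 55.1, 32.3, 50.5 and 32.9 in wild type and 31.4, 34.5, 30.7, 27.5, 31.1 and 31.0 in Rfx2-/- mice. Of the mutants, 5 of 6 lay below the lowest wild type mouse, but the gap to wild type replicates 3 and 5 was small. The means were 47.2 ± 14.3 (SD, n = 5) and 31.0 ± 2.23 CPM (SD, n = 6). The log2 fold change was -0.60 (SE 0.17, adjusted p = 0.0426 in the edgeR test), and Gas8 passed the limit in 4 of 20 alternatives. The core genes therefore did not move as one: the log2 ratio of Drc1 to Ccdc65 counts differed by -3.23 between genotypes and that of Drc1 to Gas8 by -4.26, as described with the other pairs.

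Of the subunits that attach to the core, Drc7 alone was downregulated. Drc7 (ENSMUSG00000031786, chromosome 8 from 95055103 to 95078141, plus strand) encodes a linker subunit needed for sperm flagella. Its CPM were 99.8, 78.8, 33.8, 76.0 and 26.8 in wild type mice and 6.26, 7.60, 6.06, 5.20, 6.39 and 6.27 in Rfx2-/- mice. Again no mutant came near the lowest wild type mouse, and the mutants formed a narrow band. The level was 63.0 ± 31.4 (SD, n = 5) against 6.30 ± 0.769 CPM (SD, n = 6), 10.01-fold lower in the mutant, with a log2 fold change of -3.32 (SE 0.32) and an adjusted p = 0.000170 in the edgeR test.

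Drc3 (ENSMUSG00000056598, chromosome 11 from 60353329 to 60394341, plus strand), which encodes a leucine-rich repeat subunit of the linker, had nearly the same level in both genotypes. Its CPM were 146.2, 120.6, 78.2, 150.2 and 69.3 in wild type and 102.2, 120.1, 120.9, 107.5, 105.4 and 95.5 in Rfx2-/- mice. All mutants lay inside the wild type range. Means were 112.9 ± 37.6 (SD, n = 5) and 108.6 ± 10.1 CPM (SD, n = 6), with a log2 fold change of -0.06 (SE 0.19, adjusted p = 0.835 in the edgeR test).

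Tcte1 (ENSMUSG00000023949, chromosome 17 from 45523434 to 45542680, plus strand) encodes a testis-enriched leucine-rich repeat subunit. It lies on the chromosome of Rfx2, 11.3 Mb away. Its CPM were 185.6, 133.5, 48.5, 134.3 and 31.3 in wild type mice and 222.4, 232.7, 144.5, 141.8, 221.8 and 169.8 in Rfx2-/- mice. The groups overlapped, although 3 mutants exceeded every wild type mouse. Means were 106.6 ± 64.8 (SD, n = 5) and 188.8 ± 41.7 CPM (SD, n = 6), and the difference did not pass the test (log2 fold change 0.83, SE 0.40, adjusted p = 0.139 in the edgeR test).

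Fbxl13 (ENSMUSG00000048520, chromosome 5 from 21483847 to 21645634, minus strand) encodes the F-box and leucine-rich repeat subunit. Its CPM were 49.0, 18.4, 3.89, 6.90 and 2.23 in wild type and 35.7, 66.3, 7.86, 7.69, 21.8 and 13.98 in Rfx2-/- mice. Values within a genotype thus ranged over 21.97-fold in wild type and 8.62-fold in Rfx2-/- testis, wider than for any other of the 9 genes. The genotypes overlapped, with 16.1 ± 19.5 (SD, n = 5) and 25.6 ± 22.6 CPM (SD, n = 6), a log2 fold change of 0.67 (SE 0.82) and an adjusted p = 0.541 in the edgeR test. The order of the wild type mice in Fbxl13 was that of their round spermatid score, and in both genotypes the mice with the lowest scores had the lowest Fbxl13 values.

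The rulers, which work as a pair, differed from each other. Ccdc40 (ENSMUSG00000039963, chromosome 11 from 119228572 to 119265238, plus strand) had CPM of 211.6, 171.0, 82.0, 182.7 and 67.7 in wild type and 30.7, 31.0, 34.3, 27.7, 37.5 and 31.0 in Rfx2-/- mice. No mutant value reached the wild type range. With 143.0 ± 64.2 (SD, n = 5) against 32.0 ± 3.41 CPM (SD, n = 6) the level was 4.46-fold lower (log2 fold change -2.16, SE 0.28, adjusted p = 0.00092 in the edgeR test).

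Ccdc39 (ENSMUSG00000027676, chromosome 3 from 33812362 to 33844310, minus strand) had CPM of 258.0, 223.5, 141.3, 236.6 and 101.3 in wild type and 155.7, 174.5, 153.7, 134.0, 142.0 and 144.8 in Rfx2-/- mice. Every mutant lay within the wild type range. Means were 192.1 ± 67.4 (SD, n = 5) and 150.8 ± 14.1 CPM (SD, n = 6), with a log2 fold change of -0.35 (SE 0.21, adjusted p = 0.219 in the edgeR test). Across the 9 genes, wild type replicates 3 and 5 had the lowest values for each gene, and the ratio of the highest to the lowest mouse was smaller in the mutants than in wild type for each gene, although the SD of Fbxl13 was not.

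Whether members differed from each other in their response was tested on the log2 ratio of their counts within each mouse, which needs no library size. Of the 36 pairs, 32 differed between genotypes at an adjusted p of at most 0.05 (two-sided exact permutation test, Benjamini-Hochberg over the pairs). In 27 pairs the genotypes did not overlap, and these had the smallest p-value that the permutations can give (p = 0.00433, adjusted p = 0.00577). The pairs share genes and are not independent of each other. Many of them hold Drc1, Drc7 or Ccdc40, which were each called lower on their own, so the counts partly repeat those calls. Pairs drawn from all tested genes were not tested, so the counts have no share of other pairs beside them. Whether these genes differ from each other in response more than other genes do was therefore not tested.

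The ratio of the rulers, Ccdc39 to Ccdc40, was 0.48 ± 0.20 on the log2 scale in wild type (SD, n = 5) and 2.24 ± 0.19 in Rfx2-/- testis (SD, n = 6), a difference of 1.75. Ccdc39 had more reads than Ccdc40 in every mouse, and this excess was larger in each mutant than in any wild type mouse. Drc1 and Drc7, the genes that fell most, kept a nearly fixed ratio in wild type mice (0.36 ± 0.03, from 0.33 to 0.41) despite their different absolute levels. In the mutant the ratio was -1.30 ± 0.26, so Drc1 fell further than Drc7 by 1.66 on the log2 scale, and Drc7 fell further than Ccdc40 by 1.13. Ccdc65 and Ccdc40 differed by 0.44 with overlapping genotypes (exact permutation p = 0.0216, adjusted p = 0.0244, up to 0.0536 when mice were left out or the measure was changed). Even Gas8 and Drc3, which were not called, differed in response by -0.56 with no overlap.

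The 4 pairs that did not pass the test all held Fbxl13, the most variable gene: with Tcte1 (difference 0.00 on the log2 scale, exact permutation adjusted p = 0.991), with Gas8 (-1.63, adjusted p = 0.0708), with Drc3 (-1.07, adjusted p = 0.218) and with Ccdc39 (1.35, adjusted p = 0.110). Elsewhere a difference of -1.03 passed the test with no overlap (Ccdc65 to Gas8, adjusted p = 0.00577), whereas the ratios with Fbxl13 had SDs of 0.90 to 1.41 within a genotype.

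**Figure D2:**
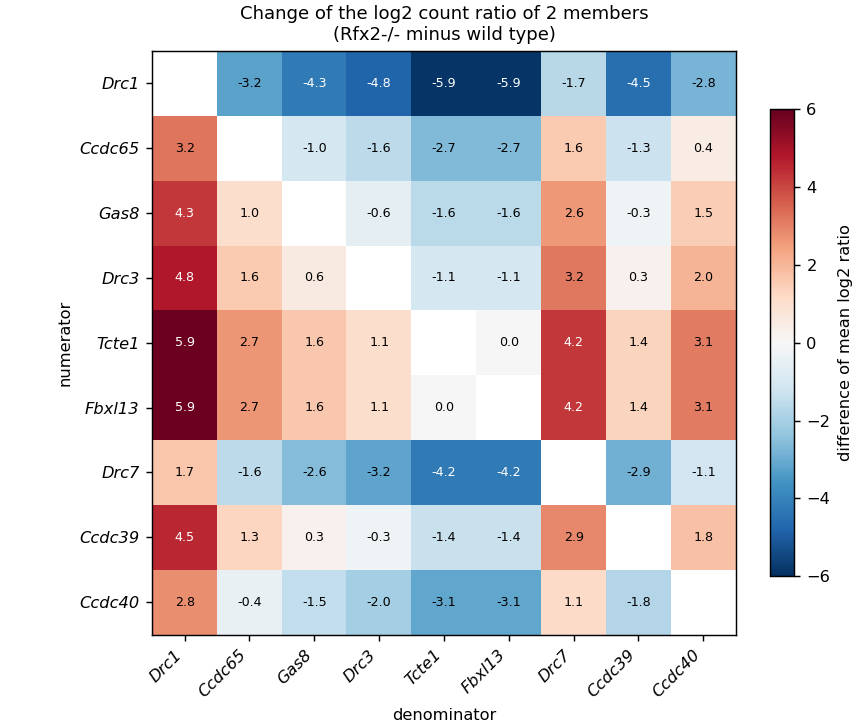
Difference between genotypes (Rfx2-/- minus wild type) in the mean log2 ratio of the counts of each gene (rows) to each other gene (columns), in blue where the row gene was lower relative to the column gene in the mutant and in red where it was higher. The rows of Drc1 and Drc7 are blue against nearly all genes, and Ccdc39 to Ccdc40 stands at 1.8.

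Levels of different genes were compared as CPM per kb of merged exons. In wild type, Ccdc65 had the highest level with 70.7 ± 38.5 CPM per kb (SD, n = 5), followed by Ccdc39 (53.3 ± 18.7), Tcte1 (34.7 ± 21.1), Drc1 (32.8 ± 16.7), Ccdc40 (27.4 ± 12.3), Drc3 (25.0 ± 8.32), Drc7 (22.3 ± 11.1), Gas8 (12.5 ± 3.79) and Fbxl13 (5.62 ± 6.80). The ranges of all neighbours in this order overlapped, and within a mouse Tcte1 exceeded Drc1 in 3 of 5 mice. In Rfx2-/- testis the order was Tcte1 (61.4 ± 13.5 CPM per kb, SD, n = 6), Ccdc39 (41.8 ± 3.90), Drc3 (24.03 ± 2.23), Ccdc65 (21.0 ± 4.98), Fbxl13 (8.92 ± 7.87), Gas8 (8.23 ± 0.590), Ccdc40 (6.15 ± 0.654), Drc7 (2.22 ± 0.272) and Drc1 (1.03 ± 0.144). Here the ranges did not overlap between Ccdc39 and Drc3, or between any neighbours from Gas8 down to Drc1. Drc1, in the middle of the wild type order, was last in the mutant.

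The results for these genes were set beside the markers of cell types in each mouse. None of the 9 marker scores differed between genotypes at an adjusted p of at most 0.05 (exact permutation tests, lowest adjusted p = 0.156). At this lowest value, scores of spermatogonia (-0.352), Sertoli cells (-0.319), macrophages (-0.307) and efferent duct and rete epithelium (-0.731) were lower in the mutants. The pachytene spermatocyte score, at the same value, was higher. Of the 13 round spermatid markers none was called, and their summed level was 8.33 to 595.9 CPM in wild type and 40.6 to 865.5 CPM in Rfx2-/- mice. The 10 pachytene spermatocyte markers, none of them called, summed to between 4499 and 10200 CPM in wild type, lowest in replicates 3 and 5. In Rfx2-/- mice they summed to between 8920 and 11460 CPM. Ccna1 (means of 90.4 and 229.5 CPM) and Tdrd5 (291.3 and 373.4 CPM) had every mutant above every wild type mouse. The other markers of this list overlapped, and 6.5% of all tested genes were separate in that direction. The pachytene score was 0.745 higher in the mutants (exact permutation p = 0.0693, adjusted p = 0.156). Of 5 Leydig cell markers 1 was called lower, against 1.94% of tested genes. In the wild type mice Drc1, Ccdc65 and Drc7 followed the same order as the round spermatid score. The pachytene spermatocyte score put the wild type mice in that order too, so the order of these genes and of Fbxl13 does not tell the scores apart. In the mutants Drc1, Drc7 and Ccdc40 stayed low at every round spermatid score. With the round spermatid score as a covariate, the log2 fold changes were -5.18 for Drc1, -3.53 for Drc7 and -2.29 for Ccdc40, each called, and 0.05 for Fbxl13.

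**Figure D3:**
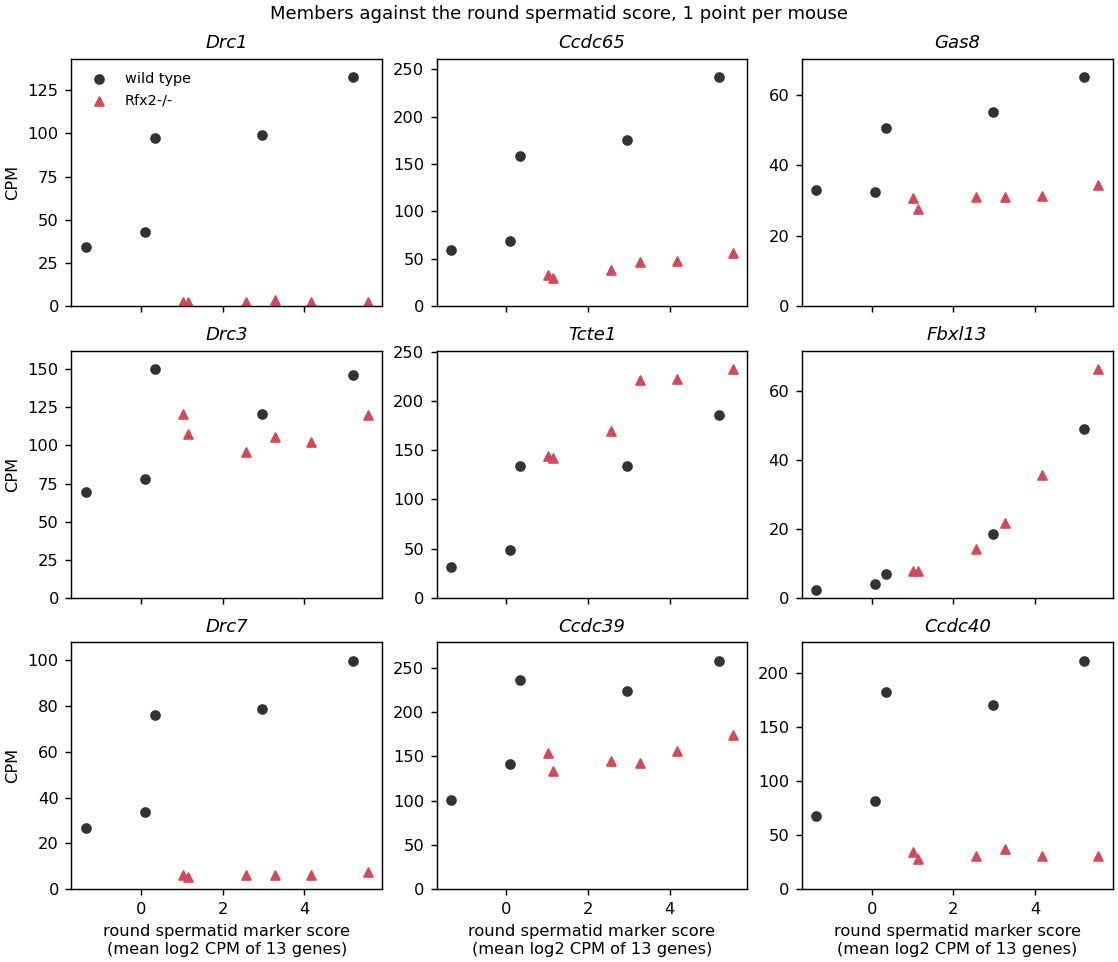
CPM of each of the 9 genes against the round spermatid score (mean log2 CPM of 13 markers), 1 point per mouse, with wild type as grey circles and Rfx2-/- as red triangles. Drc1, Drc7 and Ccdc40 stay low in the mutants over the whole range of scores, from 1.015 to 5.55, and Fbxl13 is highest in the mice with high scores in both genotypes.

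Motile cilia with the same axonemal proteins occur on epithelial cells of the efferent ducts, which a testis sample could include. Of 6 multiciliated cell markers, Foxj1 (4.43 to 79.6 CPM in wild type) and Deup1 (6.92 to 96.5 CPM) could be tested and were not called, and Mcidas, Gmnc, Cdhr3 and Tmem212 were too low to be tested. Foxj1 is also known from spermatids. The list summed to 11.9 to 176.5 CPM in wild type and 20.6 to 164.4 CPM in Rfx2-/- testis. Nearly all of this sum came from Foxj1 and Deup1, and no other marker exceeded 0.798 CPM in any mouse. In the wild type mice both Foxj1 and Deup1 followed the order of the round spermatid score. The sum therefore does not measure the share of multiciliated cells. Of 7 markers of efferent duct and rete epithelium, 6 were tested and none was called, and their summed level was 49.0 CPM in wild type replicate 1 against 9.51 to 12.5 CPM in the other wild type mice and 8.46 to 13.1 CPM in the mutants. This mouse had the highest values of Adgrg2 (9.30 CPM), Pax8 (6.84 CPM) and Cdh1 (13.3 CPM). It was also highest in Pax2 (5.285 CPM), Krt8 (13.04 CPM) and Wfdc2 (0.916 CPM). Slc9a3, too low to be tested, was highest in Rfx2-/- replicate 11 (0.566 CPM). When wild type replicate 1 was left out, the log2 fold changes of Drc1, Drc7 and Ccdc40 were -4.74, -3.09 and -1.97. All 3 were called (adjusted p = 3.29e-05, 0.000259 and 0.00168 in the edgeR test). For Fbxl13, the log2 fold change without this mouse was 1.70 (adjusted p = 0.0934), and for Drc3 it was 0.05 (adjusted p = 0.826).

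None of the other N-DRC subunits passed the test in either direction (0 of 5), and their median log2 fold change was 0.34. Of all tested genes, 1.94% were called lower and 0.73% higher, so few calls would be found among 5 genes in any case. Efcab2, a calcium binding subunit, had 83.3 ± 16.2 (SD, n = 5) and 85.7 ± 2.71 CPM (SD, n = 6), a log2 fold change of 0.04. Iqcg and Iqcd, which carry calmodulin binding motifs, had log2 fold changes of 0.34 and 0.19, and Ccdc153 had one of 0.54 at a level of 0.394 and 0.569 CPM. The subunit Iqca had 12.7, 6.56, 0.909, 1.89 and 0.472 CPM in wild type and 36.4, 38.0, 24.2, 22.7, 30.4 and 26.0 CPM in Rfx2-/- mice. All mutants exceeded all wild type mice (4.50 ± 5.16 against 29.6 ± 6.41 CPM), but with a log2 fold change of 2.72 (SE 0.73) the adjusted p = 0.0346 in the edgeR test missed the limit, which 5 of 20 alternatives passed. Without wild type replicate 1, the wild type mouse with the highest level, the log2 fold change of Iqca was 3.60 (adjusted p = 0.00821 in the edgeR test). The RefSeq promoters of Iqcg and Iqca each matched the X-box consensus in 12 of 14 letters, as 1.2% of promoters do. This was closer than in any of the 8 members with a RefSeq promoter. That of Ccdc153 matched in 11 letters, as did that of Drc1.

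Other parts of the axonemal repeat are the radial spokes with the calmodulin-associated spoke complex, and the inner dynein arms with their tethers. Of 35 such genes, 7 were called lower and 1 higher, against 1.94% and 0.73% of all tested genes. Their median log2 fold change was 0.09. Among the 17 spoke genes 6 were called lower and 1 higher (median -0.15), and among the 18 inner arm and tether genes 1 was called lower, Dnah10 (median 0.27). Lrrc23, a spoke head protein, fell from 125.7 ± 58.6 to 1.38 ± 0.219 CPM (log2 fold change -6.50, adjusted p = 7e-06 in the edgeR test), further than Drc1. Rsph9, another spoke head protein, fell from 50.9 ± 26.2 to 1.82 ± 0.472 CPM, and the spoke protein Iqub from 82.3 ± 52.0 to 3.52 ± 2.01 CPM. Rsph10b had 36.4 ± 12.7 and 16.3 ± 1.81 CPM and was called lower (adjusted p = 0.00653 in the edgeR test), but not in 8 of 11 analyses with a mouse left out: without wild type replicate 2 or 4, or any 1 of the mutants (adjusted p up to 0.0212). Rsph4a was called lower at a very low level, with 11 to 26 reads in wild type mice and 1 to 3, at the floor, in the mutants.

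Wdr66, a subunit of the calmodulin-associated spoke complex, rose from 122.6 ± 41.5 (SD, n = 5) to 448.2 ± 24.1 CPM (SD, n = 6), with a log2 fold change of 1.87 and an adjusted p = 0.000377 in the edgeR test. Every mutant, from 410.5 CPM, was above every wild type mouse, up to 168.2 CPM. Thus genes of one repeating unit of the axoneme were found lower, higher and not called in the same testes.

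**Figure D4:**
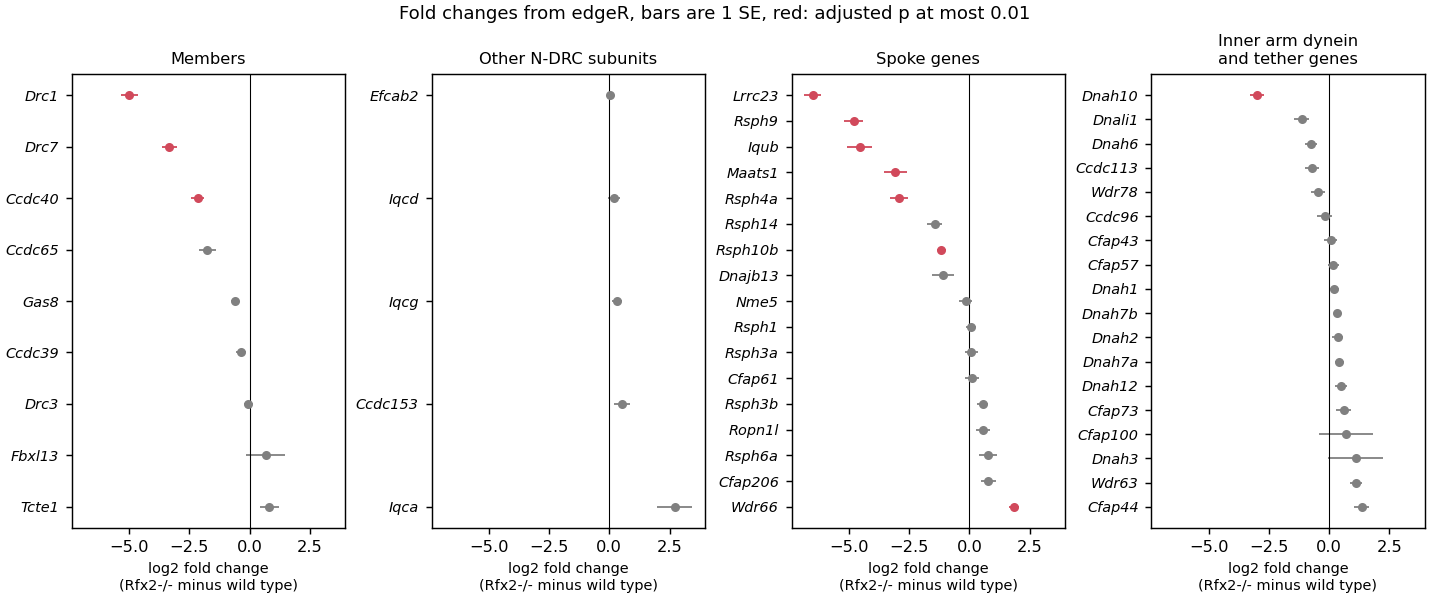
Log2 fold changes (Rfx2-/- minus wild type) with 1 SE from edgeR for the 9 genes, the other N-DRC subunits, the spoke genes and the inner arm dynein and tether genes, in red where the adjusted p was at most 0.01 and in grey otherwise. Values reach from -6.50 for Lrrc23 to 2.72 for Iqca, and each panel holds genes on both sides of 0 except the other N-DRC subunits, all above 0.

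Some genes start close to the start of a member or overlap its exons. Whether a promoter is shared was not tested. Tbc1d16, Tom1l2 and Armc10 start on the opposite strand within 1 kb of the starts of Ccdc40 (73 nt), Drc3 (424 nt) and Fbxl13 (179 nt). Tbc1d16 had 15.0 ± 3.22 (SD, n = 5) and 10.6 ± 1.31 CPM (SD, n = 6), a log2 fold change of -0.49 (adjusted p = 0.0436 in the edgeR test) beside -2.16 for Ccdc40. Tom1l2 and Armc10 had log2 fold changes of -0.29 and -0.28 and were not called. Exons of Ttc14, Tmem151b and Lrrc17 overlap those of Ccdc39 by 1256 nt, Tcte1 by 729 nt and Fbxl13 by 161 nt in the later annotation used here. The authors left out reads on exons of different genes, so the levels of these 3 members may be understated. The overlaps given take exons of all transcripts, whereas the authors counted exons of protein coding isoforms, and that overlap was not measured. None of Ttc14, Tmem151b and Lrrc17 was called (log2 fold changes -0.03, -0.26 and -0.15).

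Among all other tested genes, those whose log2 CPM were most like a member over the 11 mice had Pearson correlations between 0.960 and 0.999. This is only a description of mice that differ in genotype and in marker scores. The closest were Ccdc110 for Drc1 (0.999), 4930512B01Rik for Drc7 (0.998), Zmynd10 for Ccdc40 (0.992), Lrrc34 for Ccdc65 (0.992), Fbxw9 for Gas8 (0.990), Nosip for Drc3 (0.970), Dydc1 for Tcte1 (0.998), Tescl for Fbxl13 (0.998) and Lca5l for Ccdc39 (0.977). The next were Cfap161 for Drc1, Ccdc180 for Ccdc40, Ms4a13 for Ccdc65, Lpcat4 for Gas8, AI413582 for Drc3, Pabpc2 for Tcte1, Spz1 for Fbxl13 and Ttc29 for Ccdc39. Ccdc110, with a log2 fold change of -6.35, and 4930512B01Rik, with -7.47, were lower in the mutant by more than the member they resembled. Within the 9 genes, Drc1 and Drc7 were the most alike (0.991), followed by Drc7 and Ccdc40 (0.989).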

How the data were processed

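The authors prepared TruSeq libraries, aligned single reads to GRCm38, kept reads with 1 location, and counted those on the merged exons of each gene's protein coding isoforms, except reads shared by exons of different genes. The submitters' processing notes name CASAVA 1.8.2, STAR 2.4 and featureCounts 1.4.6, while the paper's supplement gives different aligners and read lengths in different paragraphs. Strand was not stated to be used. The deposited table holds raw counts, whole numbers for 23074 genes per mouse, with no normalization. ChIP-Seq data and older mice were not used here.

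Here, counts were analysed with edgeR 4.0.16 in R 4.3.3 (filterByExpr by genotype, TMM, glmQLFit and glmQLFTest, no covariates) over the whole table, and 15745 genes were tested. Genes were called where the p-value, adjusted over all tested genes by the Benjamini-Hochberg method, was at most 0.01. The paper names DESeq and a limit of 0.01. CPM use TMM-scaled library sizes. Marker scores are mean log2 CPM with a prior count of 2, and pair ratios had 0.5 added to each count. Single values were compared by two-sided exact permutation tests. Which mice share a litter is not given, and p-values set the difference between genotypes against the spread between these mice. Counting floors cover counting error only.

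The members, gene lists and tests were chosen with earlier results of these data known. Named are all members, all other N-DRC subunits, Rfx2, neighbouring genes, the 3 lowest and 3 highest fold changes among called genes of the axonemal repeat, and the 2 genes most like each member, of which 1 is not reported here; Dnah10 and named markers were added after their values were seen. Positions, overlaps and lengths came from GENCODE vM21 of GRCm38, which matched 22293 genes by Ensembl ID, and promoters from RefSeq. Alternatives were DESeq2 1.42.0 and its size factors, limma 3.58.1 voom with quality weights, total counts, the robust form of the fit, a filter of only 1 count or of a mean count of 50, a limit of 0.01 on the unadjusted p, the round spermatid score as covariate, and each mouse left out. The fit was tested on simulated data. The remaining steps used SciPy 1.17.1, pandas 2.3.3 and matplotlib 3.10.9 under Python 3.11.15.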

Additional observations from a re-analysis of the deposited data

Results flagged for a closer look

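In the Rfx2-/- group, Drc1 in replicate 10 stood apart from the other mutants, with 3.22 CPM against 2.16 to 2.54 CPM. The gap to the nearest mouse was 0.634 of the range of the group. This was 1 of 18 groups of values examined, and chance alone flags about 1 in 20 groups. The difference is small beside that between genotypes, since the lowest wild type mouse had 34.4 CPM.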

How the results depend on the processing

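Drc1, Drc7 and Ccdc40 were called lower in all 20 alternatives, with log2 fold changes of -5.18 to -4.74, -3.55 to -3.09 and -2.34 to -1.97. The number of the 9 genes called lower was 3 and became 5 with total counts, 6 with voom, 5 with an unadjusted p and 5 with the round spermatid covariate. The genes added were Ccdc65 and Gas8, and with voom also Ccdc39. The number was 4 with the DESeq2 Wald test and without wild type replicate 3 or 5, where Ccdc65 was added. In the remaining alternatives it stayed at 3. Total counts as library sizes moved the median of all genes from -0.05 to -0.22, and Gas8 then had a log2 fold change of -0.74. When mice were left out, the log2 fold change of Drc3 lay between -0.18 and 0.069, changing sign without wild type replicate 1 (0.055) or 4 (0.069), and was never called. The count of other N-DRC subunits called higher rose from 0 to 1 (Iqca) with the DESeq2 Wald test, voom, an unadjusted p and the covariate, and lay between 0 and 1 when mice were left out, with 1 only without wild type replicate 1. Of the 35 other genes of the axonemal repeat, 7 were called lower, with 11 under voom, 12 with the covariate and between 5 and 8 when mice were left out, with 5 without wild type replicate 2 or Rfx2-/- replicate 8, 10 or 11. The 1 called higher became 2 with total counts, 3 with DESeq2, voom, an unadjusted p or the covariate, and between 1 and 3 when mice were left out, with 3 without wild type replicate 1. The causes of these shifts were not tested. Shares of all tested genes called are given for the main fit only, so counts under the alternatives have no such share beside them. The number of pairs that differed lay between 31 and 34, and no marker score differed, in each of 13 alternatives. No paired analysis was possible because the labels do not give which mice share a litter. With 5 and 6 mice and wild type spreads of up to 21.97-fold, differences in Fbxl13 and Tcte1 could not be told from the spread.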
